A study of Mus musculus with 10 samples.

Results

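The 37 genes described here encode proteins of skeletal muscle, and they were taken by symbol from the deposited table of 35958 features. They were chosen as a measure of how much muscle was carried along in pieces of a subcutaneous tumor. All 37 were found, and 36 passed the filter on low values, a normalized read count (CPM, defined below with the samples) above about 0.37 in at least 3 tumors, as did 15767 of all features. The exception was Myh7, the myosin heavy chain of slow fibers, with 1 to 9 estimated counts in a tumor.

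The samples were 10 tumors grown under the skin of female BALB/c mice from WEHI-164 cells, a mouse fibrosarcoma line of wild-type genotype. Every piece was removed by surgery before treatment and stored in RNAlater, and a hydrogel releasing poly(I:C), a synthetic double-stranded RNA that triggers innate immune sensors, was then applied to the tumor left behind. The 5 responders (RS, tumors 5, 9, 10, 11 and 12) regressed completely, and the 5 non-responders (NR, tumors 1, 2, 3, 6 and 7) showed no delay in growth. The groups therefore differ by later outcome and share line, strain, sex and treatment, and the age of the mice is not in the labels. The methods mention trimming of surrounding tissue for a different set of tumors, and for these surgical pieces they do not say whether it was done. Total estimated counts ran from 19863863 to 28276142 in non-responders and from 16002949 to 31160790 in responders. CPM is the estimated count of a gene scaled to a common library size (TMM scaling, which allows for differences in library composition). Markers of the labeled fibrosarcoma were abundant, with Vim, an intermediate filament of mesenchymal cells, at 4243 to 5619 CPM and Col1a1, a collagen chain, at 797 to 1329 CPM.

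Skeletal muscle contracts when myosin thick filaments pull on actin thin filaments inside repeating units called sarcomeres, which are bounded by Z-discs. Calcium released from the sarcoplasmic reticulum binds troponin and lets the motors engage. Fast fibers and slow fibers use different genes for the same parts, among them myosin heavy chains, troponins and calcium handling proteins, and in mice the fastest fibers carry the heavy chain of Myh4, fibers of intermediate speed that of Myh1, the fast oxidative ones that of Myh2 and the slow ones that of Myh7. A thin sheet of muscle, the panniculus carnosus, lies under mouse skin and is rich in fast fibers. Myogenic factors bind the E-box CAGCTG, serum response factor binds CArG boxes and MEF2 proteins bind AT-rich sites in the promoters of many of these genes.

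The stretches before the RefSeq start sites are shown for 4 members that are described in detail below. Whether these letters bear on the levels was not tested. Acta1, skeletal alpha-actin, had the highest level per length after Eno3. Myh4 and Myh2 ranked the tumors differently, with NR tumor 1 and RS tumor 5 high for Myh4 and low for Myh2. Eno3, the muscle enolase of glycolysis, hardly varied. Each is 150 bases long, 5′ to 3′ on the strand of the gene, with the build GRCm38.p6. Acta1 is read from chr8:123894776-123894925 on the minus strand, Myh4 from chr11:67237662-67237811, Myh2 from chr11:67170877-67171026 and Eno3 from chr11:70657026-70657175, the last 3 on the plus strand. Capitals mark a CArG box, the E-box CAGCTG or TATAAA, a core promoter element.
Acta1: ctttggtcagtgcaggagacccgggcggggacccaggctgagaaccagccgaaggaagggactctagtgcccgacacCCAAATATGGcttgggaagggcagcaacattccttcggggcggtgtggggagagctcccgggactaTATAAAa
Myh4: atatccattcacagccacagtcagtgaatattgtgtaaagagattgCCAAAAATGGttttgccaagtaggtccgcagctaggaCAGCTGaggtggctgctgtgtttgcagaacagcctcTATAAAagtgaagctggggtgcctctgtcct
Myh2: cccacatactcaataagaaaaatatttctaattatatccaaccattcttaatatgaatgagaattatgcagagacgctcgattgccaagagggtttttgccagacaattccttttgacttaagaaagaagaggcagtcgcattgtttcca
Eno3: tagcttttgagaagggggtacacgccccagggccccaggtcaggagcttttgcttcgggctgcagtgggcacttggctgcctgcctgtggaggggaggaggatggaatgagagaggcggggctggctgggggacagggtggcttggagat

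Of the 37 members, 30 had a RefSeq promoter, and their 250 bases before the start site were searched on both strands. CAGCTG occurred in 14 of the 30 (46.7%), against 12.8% of 27025 promoters, and a CArG box in 3, those of Acta1, Ldb3 and Myh4 (10% against 1.40%). The MEF2 site occurred in 6 of 30 (20% against 3.01%) and TATAAA in 6 of 30 (20% against 13%). A TATAAA can lie inside a longer AT-rich site, so these motifs can overlap. None of the motifs occurred in the printed windows of Myh2 and Eno3, which says only that these letters are absent there.

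RNA of these genes, called muscle RNA here, was detected in every tumor, for most of them at a low level. It varied between tumors far more than most genes did. Of the 36 members, 35 had a coefficient of variation (CV, the SD over the mean) above the median of all features, with a median of 32.7% against 9.64%. The exception was Eno3, at 3.75%. Counting error raises the CV of genes with few counts, and the members run from below 1 to about 300 CPM. The level of the 35 members other than Eno3 and Des, summed as CPM, was 418 in NR tumor 1, 307 in tumor 2, 250.4 in tumor 3, 459 in tumor 6 and 472 in tumor 7. It was 290.2 in RS tumor 5, 231 in tumor 9, 309 in tumor 10, 496 in tumor 11 and 263 in tumor 12. The highest and lowest sums, 2.14-fold apart, were thus both from responders. Eno3 and Des were left out of the sum after their values were seen, because they had 2 of the 3 highest CPM values among the members. Fewer muscle cells and less RNA per muscle cell cannot be told apart in bulk samples. Whether the RNA came from muscle beside the tumor, from tumor cells or from other cells was not tested.

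**Figure D1:**
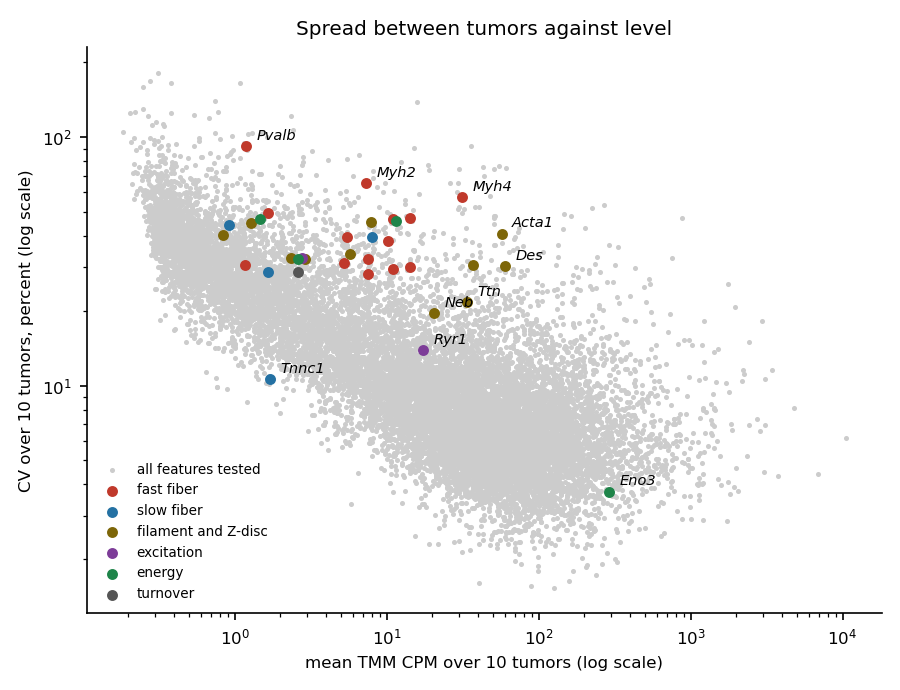
CV over the 10 tumors (vertical, percent, log scale) against mean TMM CPM (horizontal, log scale), with all 15767 features tested in gray and the 36 members in color by role. Most members lie along the upper edge of the cloud at their level, while Eno3 at 3.75% and Tnnc1 at 10.7% lie within or below it.

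Most members rose and fell together across tumors. RS tumor 11 had the highest level of 21 of the 36 members, and RS tumor 9 the lowest level of 18. These were also the tumors with the highest and the lowest total, 31160790 and 16002949 estimated counts. CPM is scaled for the total, and the part of depth in the order of tumors was not tested. NR tumors 6 and 7 were among the 3 highest tumors for 22 and 25 members, and NR tumor 3 was lowest for 7. The Pearson correlation of each member with the mean of the others over the 10 tumors, on log2(CPM + 1), was above 0.8 for 19 of 36 and above 0.5 for 32. The points share library and depth, and the values are descriptive. Tnnt3, the fast troponin T that ties troponin to the thin filament, followed the others most closely at 0.99. Tnnc2, Acta1 and Mylpf, the fast troponin C, the actin and the fast regulatory light chain of myosin, had 0.97, 0.96 and 0.95. The 4 members below 0.5 were Eno3 at 0.42, the slow troponins Tnnt1 at 0.31 and Tnni1 at 0.18, and Tnnc1, the slow and cardiac troponin C, at -0.48.

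**Figure D2:**
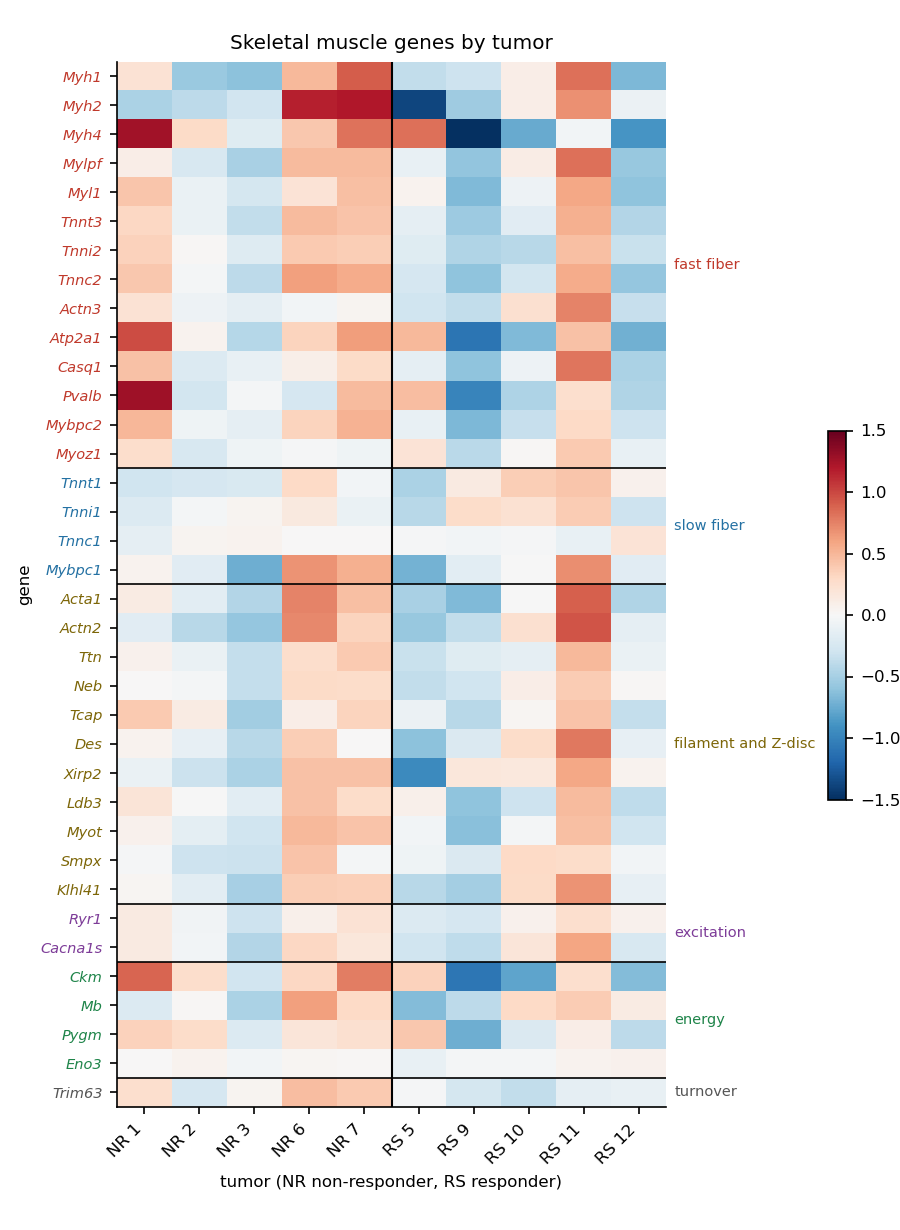
Level of the 36 members (rows, grouped by role) in each tumor (columns), as log2(CPM + 1) minus the mean of the gene over the 10 tumors; red is above and blue below that mean. Tumors 6, 7 and 11 are red for most members and tumor 9 is blue for most, while tumors 1 and 5 are red for Myh4, Atp2a1, Pvalb and Ckm and blue for Myh2.

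Acta1 lies at chr8:123891769-123894751 (GRCm38) and has 7 exons. Its level was 58.3 CPM in NR tumor 1, 47.7 in tumor 2, 39.3 in tumor 3, 90.4 in tumor 6 and 73.5 in tumor 7, and 38 in RS tumor 5, 33.6 in tumor 9, 53.2 in tumor 10, 100.8 in tumor 11 and 38.8 in tumor 12. Tumors 6, 7 and 11 stood highest, the groups overlapped, and the log2 fold change RS over NR was -0.22 (SE 0.30, adjusted p = 0.874, edgeR, quasi-likelihood, adjusted by Benjamini-Hochberg over all features). Leaving out 1 tumor moved it between -0.59 (without RS tumor 11) and -0.037 (without NR tumor 6). Per kilobase of the longest coding transcript, Eno3 was the most abundant member at a mean of 186 CPM per kb, followed by Acta1 at 39.7, Des at 19.8, Mylpf at 13.4 and Tnnt3 at 13.2. Myh7 was the least abundant at 0.029 CPM per kb. The SD over tumors was 16.2 for Acta1 and 6.01 for Des, and 5.14 for Mylpf and 3.94 for Tnnt3, so that Mylpf and Tnnt3 did not differ beyond their spread.

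By estimated counts, and without a test, the mix of the 4 adult myosin heavy chain genes differed between tumors as well as their amount. Myh4, Myh1 and Myh2 lie side by side on chromosome 11, at chr11:67238029-67260446, chr11:67200052-67224575 and chr11:67171027-67197517. Myh4 stood at 65.0, 32.6, 23.3, 35.4 and 47.5 CPM in NR tumors 1, 2, 3, 6 and 7, and at 47.9, 7.32, 15.3, 25.8 and 13.9 CPM in RS tumors 5, 9, 10, 11 and 12. It was highest in NR tumor 1, and 3 responders, tumors 9, 10 and 12, fell below all non-responders. Myh2 stood at 4.23, 4.5, 4.93, 15.2 and 15.6 CPM in the non-responders, and at 1.79, 4.00, 6.76, 10.7 and 5.79 CPM in the responders, in the same order of tumors. Its high tumors were 6, 7 and 11, and its lowest was RS tumor 5, which was second for Myh4. Myh1 stood at 11.8, 6.54, 6.19, 14.4 and 19.8 CPM in the non-responders and at 7.54, 7.88, 10.9, 18.6 and 5.91 CPM in the responders, with tumors 7 and 11 highest.

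As a share of the counts of the 4 genes, Myh4 made up 80.1% in NR tumor 1, 74.4% in tumor 2, 67.3% in tumor 3, 54.3% in tumor 6 and 57.2% in tumor 7. Its share was 83.4% in RS tumor 5, 37.7% in tumor 9, 46.5% in tumor 10, 46.7% in tumor 11 and 53.6% in tumor 12. RS tumor 5 had the highest share of all, and the other 4 responders lay below every non-responder. The gap between NR tumor 6 and RS tumor 12 was within counting error, with 95% Wilson intervals of 51.7% to 56.8% and 49.9% to 57.3%. These intervals cover counting error only, and the widest of a Myh4 share spanned 10.7 percentage points, in RS tumor 9 with 310 myosin counts. Myh2 took 3.11% in RS tumor 5 and 19.3% to 22.3% in the other responders, and Myh7 at most 1.33% in any tumor. The ratio of Myh4 to Myh2 was 15.4, 7.25, 4.72, 2.34 and 3.05 in the non-responders and 26.8, 1.83, 2.27, 2.42 and 2.40 in the responders. In this ratio NR tumor 6 lay below RS tumors 11 and 12, so the split seen in the share did not recur. These heavy chains resemble each other, and 44.9% of the 31-base stretches of the Myh1 transcript, 40.5% of those of Myh2 and 30.4% of those of Myh4 also occur in transcripts of other genes. The main partners were each other and Myh8, a heavy chain of newborn muscle that is not among the 4 genes. The split of reads between them is therefore an estimate. The error of that split was not measured.

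**Figure D3:**
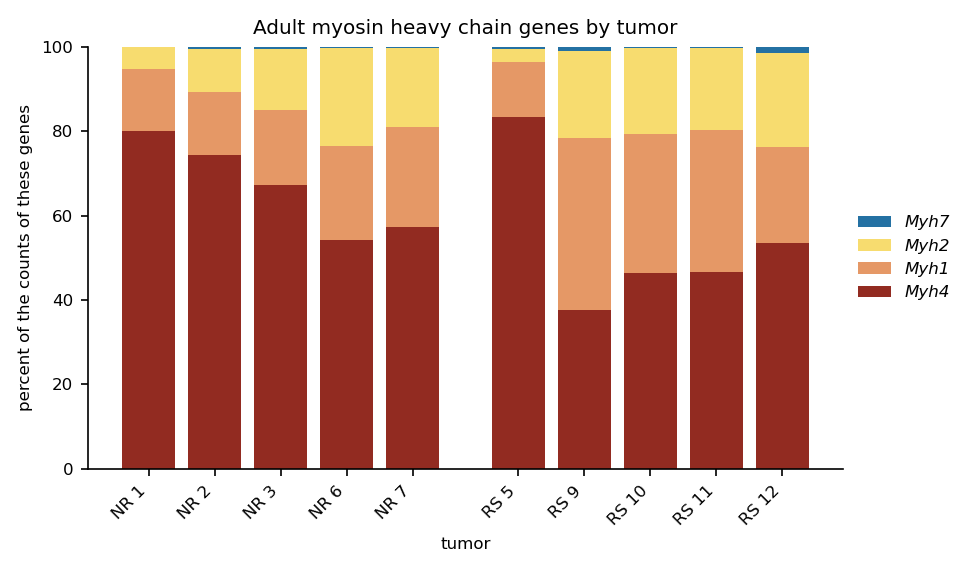
Share of Myh4, Myh1, Myh2 and Myh7 in the estimated counts of these 4 genes (stacked bars, percent) in each non-responder and responder tumor. Myh4 runs from 37.7% in RS tumor 9 to 83.4% in RS tumor 5, and Myh7 is a thin sliver everywhere.

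Of the 14 fast fiber genes, 7 were highest in RS tumor 11, 3 in NR tumor 7, 1 in NR tumor 6 and 3, Myh4, Atp2a1 and Pvalb, in NR tumor 1. Ckm and Pygm, from the energy genes, are described with these because they too were high in tumor 1 or 5, a grouping made after the values were seen. Atp2a1, the pump that returns calcium to the sarcoplasmic reticulum of fast fibers, stood at 26.3, 13.4, 9.31, 16.4 and 20.5 CPM in the non-responders and at 18.4, 5.50, 7.80, 17.8 and 7.40 CPM in the responders. Ckm, the muscle creatine kinase that buffers ATP, stood at 19.8, 12.7, 8.35, 13.1 and 18.5 CPM in the non-responders and at 13.5, 4.38, 5.58, 12.6 and 6.25 CPM in the responders. Both were highest in NR tumor 1 and lowest in RS tumor 9, and the groups overlapped for both. Pvalb, the calcium buffer parvalbumin of the fastest fibers, stood at 3.83, 0.643, 0.956, 0.677 and 1.76 CPM in the non-responders and at 1.75, 0, 0.444, 1.37 and 0.460 CPM in the responders. It had 87 counts in NR tumor 1 and 0 in RS tumor 9, where 3 counts would be 0.187 CPM. Pygm, which breaks down glycogen in muscle, was highest in RS tumor 5 at 3.65 CPM. In contrast, RS tumor 5 had the lowest level of 8 members, among them Myh2, Des, Neb, Xirp2 and Mb, the oxygen store myoglobin of oxidative fibers.

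The fast troponins followed the overall muscle level. Tnnt3 stood at 17.2, 12.7, 10.4, 19.5 and 18.8 CPM in NR tumors 1, 2, 3, 6 and 7, and at 12.4, 9.07, 12.1, 20.2 and 9.86 CPM in RS tumors 5, 9, 10, 11 and 12. Tnni2, the fast inhibitory subunit, stood at 9.51, 7.36, 6.24, 9.88 and 9.67 CPM in the non-responders and at 6.29, 5.07, 5.18, 10.3 and 5.56 CPM in the responders. Tumor 11 was highest for both, at 20.2 and 10.3 CPM, against at most 12.4 and 6.29 CPM in the other responders. Tnnc2 stood at 7.17, 5.04, 3.72, 8.44 and 8.06 CPM in the non-responders and at 4.20, 3.06, 4.10, 8.10 and 3.15 CPM in the responders. Mylpf stood at 10.5, 8.08, 6.64, 13.9 and 13.9 CPM in the non-responders and at 8.90, 6.07, 10.5, 18 and 6.21 CPM in the responders. For both of these tumors 6, 7 and 11 led and the groups overlapped. Their log2 fold changes were -0.29 (SE 0.22, adjusted p = 0.745) for Tnnt3, -0.38 (SE 0.20, adjusted p = 0.638) for Tnni2, -0.50 (SE 0.28, adjusted p = 0.666) for Tnnc2 and -0.079 (SE 0.29, adjusted p = 0.965, edgeR) for Mylpf. Without RS tumor 11 they were -0.53 for Tnnt3, -0.62 for Tnni2 and -0.83 for Tnnc2. Over the other tumors left out, the value nearest 0 was -0.19 for Tnnt3, -0.31 for Tnni2 and -0.39 for Tnnc2.

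The slow troponins were the 3 members with the lowest correlations with the others, given above. Tnni1, the slow inhibitory subunit, stood at 1.28, 1.57, 1.71, 1.90 and 1.45 CPM in the non-responders and at 0.971, 2.19, 2.07, 2.41 and 1.11 CPM in the responders. Tnnc1 stood at 1.45, 1.79, 1.81, 1.72 and 1.72 CPM in the non-responders and at 1.67, 1.63, 1.68, 1.5 and 2.11 CPM in the responders. RS tumor 9, the lowest tumor for 18 members, was thus second for Tnni1, and NR tumor 1, with the most Myh4, was lowest for Tnnc1. Myh7 had 2, 5, 4, 5 and 3 counts in the non-responders and 6, 3, 1, 6 and 9 counts in the responders, too few to order the tumors.

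The 3 fast troponins were higher than their slow counterparts in every tumor when compared per kilobase. The ratio of Tnnt3 to Tnnt1 was 31.9, 21.8, 16.8, 14.6 and 22.4 in NR tumors 1, 2, 3, 6 and 7, and 34.7, 8.37, 8.29, 13.2 and 10.1 in RS tumors 5, 9, 10, 11 and 12. As with the Myh4 share, RS tumor 5 was highest and the other 4 responders lay below all non-responders. Such a split sets tumor 5 aside after the values were seen, and its share over all features was not measured. The nearest tumors across that gap, NR tumor 6 and RS tumor 11, had 29 and 46 Tnnt1 counts, and RS tumor 5 had 9. With counts this low the order of close tumors is uncertain, and the counting error of the ratio was not measured. The ratio of Tnni2 to Tnni1, the inhibitory subunits, ran from 3.47 in RS tumor 9 to 11.2 in NR tumor 1, and that of Tnnc2 to Tnnc1, the calcium-binding subunits, from 1.54 in RS tumor 12 to 5.58 in RS tumor 11. For both of these the groups overlapped without a single tumor setting the overlap. The ratio of Mybpc2 to Mybpc1, the fast and slow myosin-binding proteins C, did not split that way either. NR tumor 3 was highest at 2.52, and NR tumor 6 at 1.18 lay below RS tumor 12 at 1.38. Of the 31-base stretches of Tnnc2, 67.6% are also in transcripts of Ube2c, a cell cycle gene that overlaps it on the opposite strand and stood at 111 to 141 CPM, and no source used here says whether strand was used. Reads of the pair cannot be told apart without strand in the shared stretch.

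**Figure D4:**
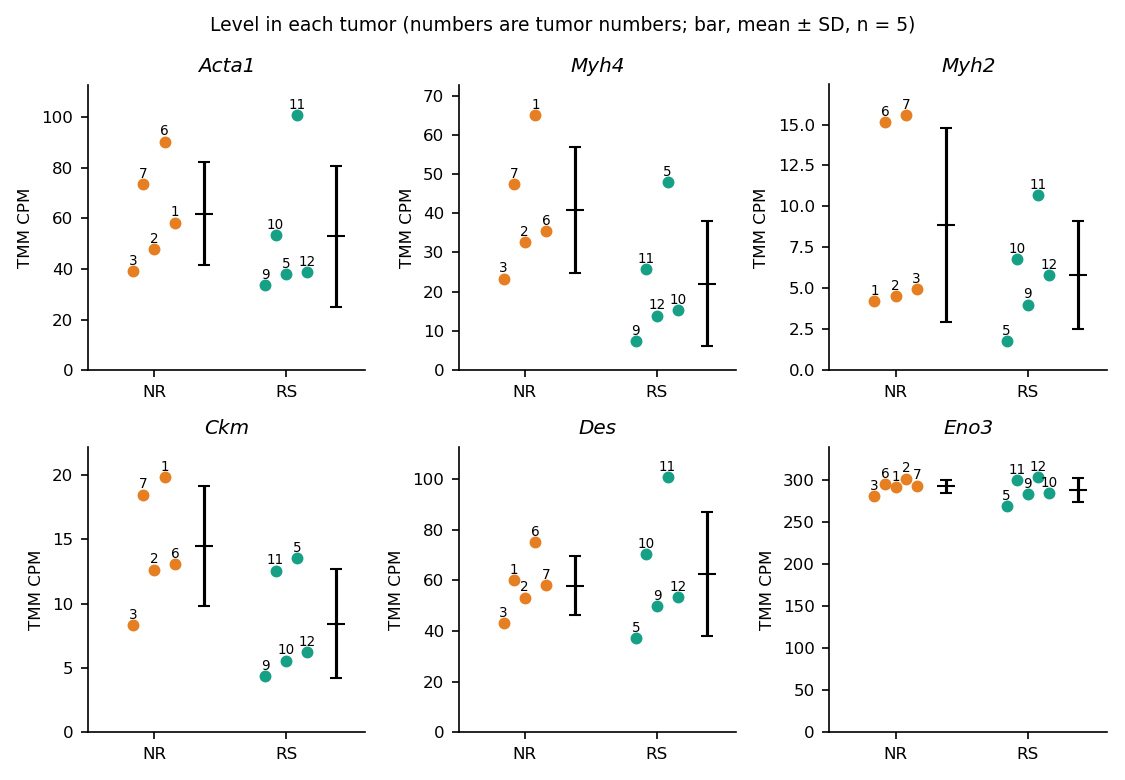
TMM CPM of 6 members in each tumor (points, labeled by tumor number) for non-responders and responders, with the mean ± SD (n = 5) beside each group and every axis starting at 0. The order of tumors changes from gene to gene: tumor 11 leads for Acta1 and Des, tumor 1 for Myh4 and Ckm and tumor 7 for Myh2, while Eno3 stays between 269 and 303 CPM.

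The comparison of the groups asked whether pieces that came from tumors that later regressed carried more or less muscle RNA. No member passed the threshold of 0.05 on the adjusted p, and nor did any feature (0% of 15767). The smallest adjusted p of a member was 0.580. At an unadjusted p under 0.05, 4 of 36 members were lower in responders, against 4.00% of all features, and 0 were higher, against 4.20%. In all, 26 members had a log2 fold change below 0, against 51.4% of all features, and their median was -0.15 against -0.0036. No member had all responders below all non-responders, against 0.590% of all features. Most members move together across tumors, so they are not independent of each other. The count of 4 was 11 without RS tumor 11, 6 without NR tumor 3 or RS tumor 5 (in the latter case with 1 higher), 4 without NR tumor 2 and 1 without each of the other tumors, and the median ran from -0.45 without RS tumor 11 to -0.039 without NR tumor 6 or 7. The count was 2 with robust edgeR and 3 with DESeq2 or with a filter of CPM above 1 in at least 5 tumors.

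Of the 4 members with the unadjusted p under 0.05, Mybpc2 and Myh4 were fast fiber genes, Ckm an energy gene and Trim63 a gene of protein breakdown. Trim63, a ubiquitin ligase that marks sarcomere proteins for breakdown, stood at 3.21, 1.97, 2.62, 3.88 and 3.64 CPM in the non-responders and at 2.49, 1.94, 1.73, 2.21 and 2.26 CPM in the responders, and the log2 fold change was -0.51 (SE 0.19, adjusted p = 0.580, edgeR). Its group ranges overlapped through NR tumor 2. Mybpc2, the fast myosin-binding protein C of the thick filament, stood at 15.4, 10.1, 9.56, 13.6 and 15.7 CPM against 9.71, 6.25, 8.14, 13.2 and 8.32 CPM, with a log2 fold change of -0.48 (SE 0.19, adjusted p = 0.586, edgeR). The groups overlapped through RS tumors 5 and 11, and the other responders lay below every non-responder. For Ckm and Myh4, given above, the log2 fold changes were -0.75 (SE 0.31, adjusted p = 0.591) and -0.86 (SE 0.40, adjusted p = 0.607, edgeR), and leaving out 1 tumor moved them between -0.97 (without RS tumor 5, adjusted p = 0.191) and -0.60 (without RS tumor 9) for Ckm and between -1.35 (without RS tumor 5, adjusted p = 0.104) and -0.63 (without NR tumor 1) for Myh4. None of the 4 passed the threshold.

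**Figure D5:**
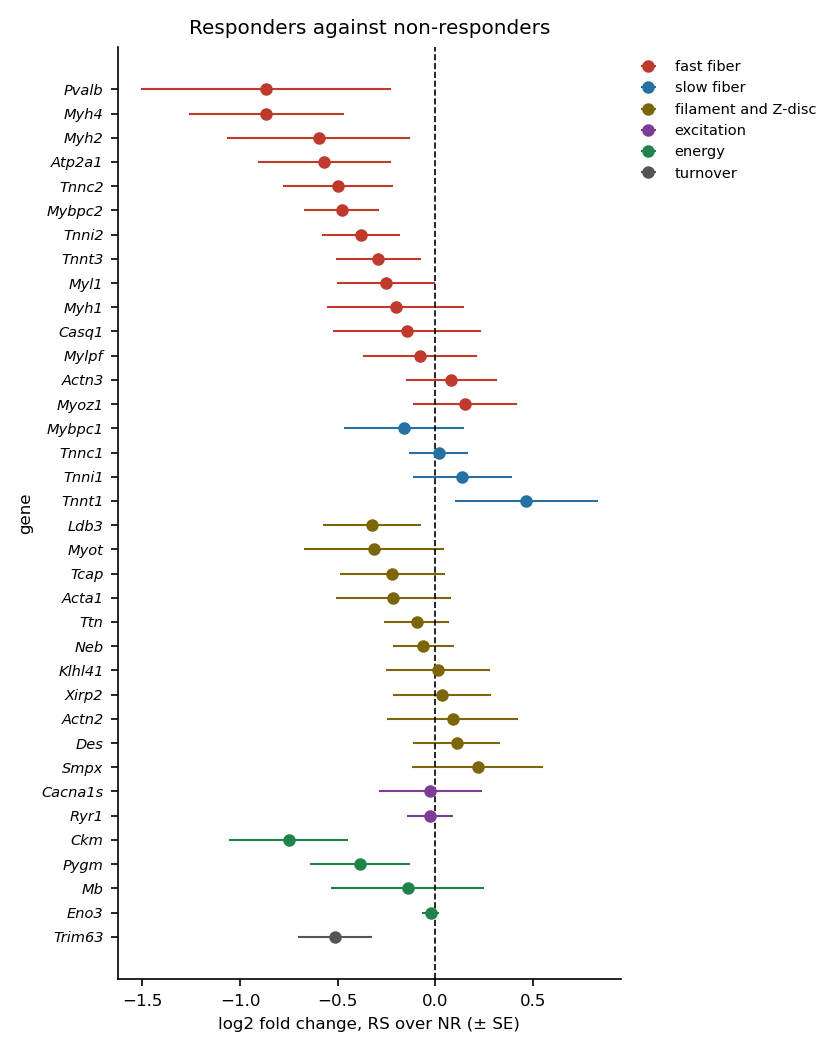
Log2 fold change of responders over non-responders (horizontal, ± SE from edgeR) for the 36 members, ordered within role; the dashed line is the median of all features. Of the 14 fast fiber genes 12 lie left of 0, as do 1 of the 4 slow fiber genes, and no member passed the adjusted threshold.

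By role, 12 of the 14 fast fiber genes had a log2 fold change below 0, with a median of -0.34, and 2, Actn3 and Myoz1, both Z-disc proteins, lay above 0. Of the 4 slow fiber genes tested, 3 lay above 0, and the median was 0.078. A fast fiber score, the mean log2(CPM + 1) of the 14 genes, was 3.07 ± 0.35 (SD, n = 5) in non-responders and 2.72 ± 0.46 (SD, n = 5) in responders, a difference of -0.35 (-0.22 without RS tumor 9). The slow fiber score over 4 genes was 1.69 ± 0.20 and 1.72 ± 0.28, a difference of 0.034 that was well below its SD. It was -0.021 with the filter of CPM above 1 in at least 5 tumors and 0.0017 with a pseudocount of 5, and ran from -0.046 to 0.141 with 1 tumor left out at a time. Of the slow genes, Tnnt1 stood at 0.528, 0.572, 0.604, 1.31 and 0.822 CPM in the non-responders and at 0.350, 1.06, 1.43, 1.5 and 0.959 CPM in the responders, the largest log2 fold change above 0 of a member (0.47, SE 0.37, adjusted p = 0.754, edgeR). This ran from 0.29 without RS tumor 11 to 0.74 without NR tumor 6, and was 0.70 without RS tumor 5. Tumor 5 was again the exception among the responders. Mybpc1, the slow myosin-binding protein C that some fast fibers also use, ran from 4.13 to 12.5 CPM in non-responders and from 4.20 to 12.8 CPM in responders, and it was highest in tumors 6, 7 and 11. RS tumor 11 was also the highest tumor for Tnnt1 and Tnni1. Per kilobase, its mean level of 2.04 CPM was close to the 2.37 of Tnnc1. The log2 fold changes of Tnni1 and Tnnc1 were 0.14 (SE 0.26) and 0.017 (SE 0.15). The difference between the fast and the slow genes was not tested.

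Of the 11 members grouped as filament and Z-disc genes, which leave out the myosins and troponins of the fast and slow lists, 6 had a log2 fold change below 0 and 5 above, with a median of -0.062. Ttn, the giant spring protein titin, stood at 34.6, 30.7, 25.6, 39.8 and 43.7 CPM in the non-responders and at 26.1, 29.0, 30.1, 46.6 and 30.9 CPM in the responders, with tumor 11 highest and the groups overlapping (log2 fold change -0.096, SE 0.16, adjusted p = 0.906, edgeR). Des, the intermediate filament desmin that links Z-discs and is also made by smooth muscle, stood at 60.0, 53.1, 43.2, 75.1 and 58.1 CPM in the non-responders and at 37.3, 49.8, 70.4, 100.6 and 53.3 CPM in the responders. RS tumors 5 and 11 were its lowest and highest tumors, so the responders spanned the whole range (log2 fold change 0.11, SE 0.22, adjusted p = 0.923, edgeR). Neb, the nebulin of the thin filament, had a CV of 19.5%, and Xirp2, an actin-binding protein of the Z-disc region, ran from 17.7 CPM in RS tumor 5 to 53.1 CPM in RS tumor 11. Smpx, a small muscle protein, was among the 3 members of smallest p above 0, at 0.22 (SE 0.34, adjusted p = 0.891, edgeR; 0.066 to 0.55 over the tumors left out), and Myoz1 the third, at 0.15 (SE 0.27, adjusted p = 0.906, edgeR).

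Excitation and energy genes differed among themselves in how much they varied. Ryr1, the calcium release channel, ran from 13.8 to 20.8 CPM with a CV of 13.9%, and Cacna1s, the voltage sensor that opens it, from 1.71 to 4.55 CPM with a CV of 32.6%. Both had log2 fold changes near 0, at -0.025 and -0.026. Eno3 stood at 291, 302, 281, 296 and 293 CPM in the non-responders and at 269, 284, 285, 300.0 and 303 CPM in the responders, and RS tumor 5 was its lowest. Its log2 fold change was -0.023 (SE 0.044, adjusted p = 0.916, edgeR). Its range between tumors was small, and its correlation with the other members was the 0.42 given above.

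A second list of 58 skeletal muscle genes was written from general knowledge. Of these, 51 passed the filter, 34 of which had a log2 fold change below 0 and 17 above, with a median of -0.083, and 0 were called. Over all features, 51.4% lay below 0. At an unadjusted p under 0.05, 4 were lower in responders and 0 higher, against 4.00% and 4.20% of all features. Among them were Ampd1 and Pgam2, enzymes of muscle energy supply, and the actin-binding Xirp1, with log2 fold changes of -1.37 (SE 0.50), -0.46 (SE 0.16) and -0.40 (SE 0.18). NR tumor 7 was highest for 13 of the 51, RS tumor 11 for 12 and NR tumor 6 for 8, and RS tumor 5 for 0. Not all varied: the tropomyosin genes Tpm1, Tpm2 and Tpm3, which other cells also use, had CVs of 6.16%, 6.77% and 5.27%. Myl2 and Myl3, the light chains of slow fibers and of the ventricle, had at most 5 and 1 counts in a tumor.

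Genes of muscle precursors and of other tissues were set beside the members. Myf5, a myogenic regulator, was measured at 26.3 to 40.1 CPM, Cdh15, an adhesion protein of muscle precursors, at 4.20 to 11.5 CPM, and Chrna1, a subunit of the acetylcholine receptor, at 3.13 to 6.93 CPM, while Pax7 and Myod1 had at most 3 and 12 counts in a tumor. Cdh15 stood at 7.83, 11.5, 8.05, 8.80 and 8.80 CPM in the non-responders and at 7.58, 5, 7.70, 4.20 and 5.37 CPM in the responders, so that its groups did not overlap (log2 fold change -0.60, SE 0.17, adjusted p = 0.580, edgeR), as was the case in this direction for 0.590% of all features. It was the only one of the 7 precursor genes tested to do so, and of these 5 had a log2 fold change below 0 and 2 above, with Myh8, a myosin heavy chain of newborn muscle, at 0.27 (SE 0.41). Its highest tumor, NR tumor 2, was not a high tumor for the members. Of the heart list, Tnnt2 was measured at 74.1 to 122 CPM, while Myh6 and Myl7, which define heart muscle, had 0 counts in every tumor. Myl4 and Tnni3, the next by CPM, were at 2.57 to 6.05 and 0.822 to 1.63 CPM.

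The summed level of the adipocyte list was 35.6 to 79.4 CPM over its 10 genes, led by Fabp4, Lpl and Plin4. It was highest in NR tumor 6 and RS tumor 10 and was 37.4 CPM in RS tumor 11, where muscle RNA was highest. The keratinocyte list summed to 17.5 to 22.1 CPM, led by Dsp, Krt10 and Sfn, and 7 of its 10 genes, Krt5 and Krt14 among them, had fewer than 10 counts in every tumor, with Krt1 at 0. The 8 endothelial genes summed to 166 to 222 CPM, led by Pecam1, Cdh5 and Kdr, and the 10 smooth muscle genes to 166 to 206 CPM, led by Smtn, Mylk and Acta2. The 6 leukocyte genes, led by Itgam, Csf1r and Ptprc, summed to 551 to 682 CPM in non-responders and 584 to 767 CPM in responders, with RS tumor 11 highest. The 6 peripheral nerve genes, led by Pmp22, Prx and Mbp, summed to 82.4 to 99.3 CPM, and the 6 mesenchymal genes, led by Vim, Fn1 and Col1a1, to 7008 to 8370 CPM. Over all features, 51.4% had a log2 fold change below 0. At an unadjusted p under 0.05, 4.00% of all features were lower and 4.20% higher in responders. Beside these shares, some of the lists leaned one way between the groups, with 0 genes called. Of the genes tested, 8 of 9 adipocyte genes had a log2 fold change below 0 (median -0.44, 2 at an unadjusted p under 0.05). So did 7 of 8 endothelial genes (median -0.20, 3 at an unadjusted p under 0.05), while all 6 leukocyte genes lay above 0 (median 0.17). The mesenchymal genes were nearer the share of all features, with 4 of 6 below 0 (median -0.19, 1 at an unadjusted p under 0.05). The heart, smooth muscle, keratinocyte and nerve genes below 0 were 2 of 6, 4 of 8, 1 of 3 and 3 of 6. Of these, 2 smooth muscle genes, Smtn and Mylk, were lower and 1 heart gene, Myl4, was higher at an unadjusted p under 0.05. The smooth muscle sum was 189 ± 10.4 CPM (SD, n = 5) in non-responders and 172 ± 7.41 CPM (SD, n = 5) in responders. The part of these cell types in the muscle result was not tested.

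Acta1 was set against 6 genes across the 10 tumors, with two-sided permutation tests and Benjamini-Hochberg adjustment over the 6. It rose with Des (Pearson r = 0.851, permutation p = 0.00112, adjusted p = 0.00672; Spearman rho = 0.867, permutation p = 0.00195, adjusted p = 0.0117), and within the groups, after subtracting group means, r was 0.903 (permutation p = 0.00023). Without NR tumor 6 and RS tumor 11, the tumors farthest from the median of Acta1, r was 0.640 (exact permutation p = 0.0889) and rho 0.738 (exact permutation p = 0.0458), so that with 8 tumors and a shorter range of Acta1 r no longer passed 0.05, while rho, not adjusted, did. None of the other 5 passed the adjusted threshold by either measure. For Acta2, smooth muscle actin, r was 0.402 (permutation p = 0.244, adjusted p = 0.731) and rho 0.394 (permutation p = 0.260, adjusted p = 0.728), and without the 2 tumors r was 0.262. For Adipoq, the fat hormone adiponectin, r was 0.059 (permutation p = 0.870, adjusted p = 0.870) and rho 0.188 (permutation p = 0.606, adjusted p = 0.728), and without the 2 tumors r was 0.765 (exact permutation p = 0.0306, not adjusted). For Pecam1, an endothelial adhesion protein, r was 0.165 (permutation p = 0.636, adjusted p = 0.764) and rho 0.055 (permutation p = 0.891, adjusted p = 0.891), and -0.240 without them. Myh7 and Krt14, both below 10 counts, had r of -0.251 (permutation p = 0.484, adjusted p = 0.764) and 0.198 (permutation p = 0.575, adjusted p = 0.764), rho of -0.309 (permutation p = 0.383, adjusted p = 0.728) and 0.212 (permutation p = 0.562, adjusted p = 0.728), and r of -0.675 and 0.498 without the 2 tumors. The rho of Myh7 on those 8 tumors was -0.738 (exact permutation p = 0.0458, not adjusted), as large as that of Des and of opposite sign, from a gene with 1 to 9 counts. Within the groups r was 0.531 for Acta2, -0.0042 for Adipoq, 0.300 for Pecam1, -0.199 for Myh7 and 0.148 for Krt14.

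Outside the members, the features whose pattern was most like the mean of the members over the 10 tumors were picked. They were the 10 with the highest Pearson r among the named features tested, which number 14944 with the members included. They were Fhl1 (0.97), Eef1a2 (0.96), Nop9 (0.94), Pa2g4 (0.93), Lrrc15 (0.93), Ddx27 (0.92), Pdlim3 (0.92), Tbl3 (0.92), Mbd3 (0.91) and Abat (0.91). Fhl1 ran from 7.90 to 23.8 CPM and Eef1a2 from 1.88 to 5.46 CPM, 3.01-fold and 2.91-fold ranges, whereas Pa2g4 ran from 352 to 442 CPM. The likeness is the result of a search over many features and only 10 tumors.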

How the data were processed

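The authors quantified polyA RNA from 150 bp paired-end reads with Kallisto and summed transcripts to genes with tximport on GRCm38. They deposited estimated counts per gene, without normalization. The annotation release and the use of strand were not given in the sources used here. Of 36009 rows, 9580 lack a name and 44 names repeat. Rows of one name were summed and counts rounded. RS and NR were compared in R 4.3.3 by the quasi-likelihood test of edgeR 4.0.16, after TMM scaling and a filter (CPM above about 0.37 in 3 or more tumors), with Benjamini-Hochberg adjustment over 15767 features. DESeq2 1.42.0, limma 3.58.1, robust edgeR, other scalings, filters and pseudocounts, and leaving out each tumor were alternatives. The steps were tested on simulated data. The common biological coefficient of variation was 10.4%, and totals ran from 16002949 to 31160790. Replicates are separate mice, whose numbers do not pair groups. Scores used a pseudocount of 1. The members and lists were chosen with earlier results of these data known. Named genes were 18 listed members, the 3 of smallest p in each direction, the 10 features most like the members and the 3 most abundant genes of each other list; others are named by their range or as extremes. Lengths and coordinates are from GENCODE vM21, promoters from RefSeq. Correlations used 100000 permutations in scipy. One gene of the second muscle list is not reported here.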

Additional observations from a re-analysis of the deposited data

Results flagged for a closer look

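Within the groups of 5 tumors, 86 sets of values (36 members, 3 scores and 4 myosin shares, in each group) were searched for a tumor far from the others by Dixon's ratio, the gap to the nearest tumor over the whole range. Chance gives about 1 in 20, or 4.3, and 3 were found. Tnnc1 in NR tumor 1 stood at 1.29 on log2(CPM + 1), against 1.44 to 1.49 in the other non-responders, a ratio of 0.744. Ttn in RS tumor 11 stood at 5.57, against 4.76 to 4.99 in the other responders, a ratio of 0.713. The Myh2 share of the myosin counts in RS tumor 5 was 3.11%, against 19.3% to 22.3% in the other responders, a ratio of 0.844.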

How the results depend on the processing

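No member was called under any alternative. The count of features called was 1 with DESeq2 and 0 to 9 when a tumor was left out, the 9 without RS tumor 5. The fold changes of 21 named members gave 354 values under alternatives, of which 12, in 8 members, changed sign, all on leaving out a tumor. Over the tumors left out, the log2 fold change of Mylpf ran from -0.41 to 0.054, with 0.040 and 0.042 without NR tumors 6 and 7 and 0.050 without RS tumor 9. That of Tnnc1 ran from -0.072 to 0.071, with -0.034 without NR tumor 1. Myh1 ran from -0.55 to 0.074, Ttn from -0.26 to 0.0021, Eno3 from -0.042 to 0.0040, Tnni1 from -0.024 to 0.30, Des from -0.13 to 0.25 and Myoz1 from -0.040 to 0.31. The fast fiber score difference ran from -0.53 to -0.22 and that of the slow fiber score from -0.046 to 0.14. With a pseudocount of 0.25 the correlation of Acta1 with Adipoq was -0.044. The cause was not tested. No paired analysis was possible because the tumor numbers are unique across the groups. Depth limits the genes of few counts, such as Myh7, Pvalb, Smpx and Adipoq, and each group has 5 tumors.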
